A study of Homo sapiens with 6 samples.

Results

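The mRNAs described here encode 9 proteins that unwind or bind G-quadruplexes, namely the DEAH-box helicases DHX36 and DHX9, the DEAD-box helicases DDX5, DDX17, DDX21 and DDX3X, and the RNA-binding proteins CNBP, NCL and FMR1. Members were chosen by gene name, and each had 1 RefSeq transcript among the 15739 RefSeq transcripts of the study. U2OS, a human osteosarcoma cell line, gave the poly(A)-selected RNA of all 6 libraries, which were sequenced after reverse transcription (RT) so that each cDNA end marks an RT stop. By the labels, unprobed RNA (no dimethyl sulfate, DMS) was reverse transcribed in 150 mM K+ or in 150 mM Na+, refolded RNA was treated with DMS in K+ or in Li+, and cells were treated with 8% DMS for 5 min either unstressed or after 2 h of starvation in a balanced salt solution. Every library with DMS, that of RNA refolded in Li+ included, was reverse transcribed in 150 mM K+ by the same labels. Each condition was 1 library with no replicate, so no difference between conditions has a replicate check, no test was possible, and every interval given covers counting error only.

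The RNA G-quadruplex (rG4) is a stack of guanine tetrads held by Hoogsteen bonds. It is stable in K+ and much less so in Na+ or Li+, and a folded rG4 makes reverse transcriptase halt at the G at its 3′ edge. DMS methylates the N7 of guanines outside a quadruplex, which keeps an rG4 from folding again before RT, whereas methylation of A and C at the base-pairing face itself stops RT. DHX36 is a major rG4-resolving helicase, while FMR1 protein and nucleolin bind rG4s, the former through an arginine-glycine-glycine (RGG) box. The comparisons below ask whether mRNAs of such regulators carry rG4-like RT stops themselves, and how their stops and abundance differ between conditions.

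The labels of both unprobed libraries contradict the names of their deposited files, which give the opposite cation, and the methods of the study name Li+ where its labels and results name Na+. They are named here as labelled, these sources do not settle which of them was reverse transcribed in K+, and transcripts with a strong G region that differed between them more often had it stronger under the Na+ label, with both shares given below. Listed stops per library ranged from 12999691 in unstressed cells to 35371061 in the unprobed library labelled K+. The RT-stop enrichment (E) of a nucleotide is its stop count over the mean stop count of all nucleotides of its transcript, a strong stop has an E of at least 10, and transcripts entered when their mean stop count was at least 1. Of the 9 members, 8 passed this minimum in both unprobed libraries, and FMR1, with means of 0.608 (labelled K+) and 0.552 (labelled Na+) stops per nucleotide, did not. In both cell libraries 6 members passed, and DHX36, DDX3X and FMR1 did not.

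The sequences below are from some of the G stops on which the results turn, and that of the strongest NCL stop, G 949, is not among them. They are written 5′ to 3′ as DNA letters of the mRNA strand from GENCODE release 44 on GRCh37, with runs of at least 2 G in capitals. All equal the GRCh37 genome. Coding stretches of DDX17, NCL, DHX9 and FMR1 come first. Counted from the 5′ end, the stop is the last of 39 bases for DDX17, bases 81 and 150 of 150 for NCL, base 30 of 75 for DHX9 and base 62 of 71 for FMR1.
DDX17, coding, stop at chr22:38882442, minus strand, exon 13 of 13: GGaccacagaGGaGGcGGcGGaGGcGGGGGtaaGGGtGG
NCL, coding, stops at chr2:232320144 (exon 13) and chr2:232319942 (exon 14), minus strand: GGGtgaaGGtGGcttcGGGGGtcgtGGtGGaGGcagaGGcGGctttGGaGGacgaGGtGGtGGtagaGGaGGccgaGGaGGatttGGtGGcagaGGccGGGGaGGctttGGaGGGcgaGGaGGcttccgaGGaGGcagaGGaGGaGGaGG
DHX9, coding, stop at chr1:182856517, plus strand, exon 28 of 28: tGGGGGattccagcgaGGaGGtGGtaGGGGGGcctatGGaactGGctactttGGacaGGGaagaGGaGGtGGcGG
FMR1, coding, stop at chrX:147026563, plus strand, exon 15 of 17: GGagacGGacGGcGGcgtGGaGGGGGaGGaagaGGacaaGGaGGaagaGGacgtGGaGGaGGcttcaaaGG
The 2 DDX17 stops in the 3′ UTR lie in or at the end of these 30 nt.
DDX17, 3′ UTR, stop at chr22:38881535, minus strand: gagttGGtGGGGaGGGaGGGaGGGGGaGGG
DDX17, 3′ UTR, stop at chr22:38880391, minus strand: tttaGGGagagaGGGatGGtttctgaGGGG
For contrast, the 30 nt that end at the strongest G of DDX3X and of CNBP hold few G runs.
DDX3X, 3′ UTR, stop at chrX:41208189, plus strand: acaaGGtgtcaattctgctctacagtgcag
CNBP, 3′ UTR, stop at chr3:128888494, minus strand: tgctgtaatcagtttttaaaagtcagatGG

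Strong stops at G were found on 4 members, but on different ones in each unprobed library. In the library labelled Na+, DDX17 and NCL each had 3 and no other member past the minimum had any. This is 2 of 8 members (25.0%), beside 44.0% of the 3731 transcripts past the minimum in that library. In the library labelled K+, DDX3X and CNBP each had 1, again 2 of 8 members, beside 15.4% of 3836 transcripts. DHX36, DHX9, DDX5 and DDX21 had no strong G stop in either library, and their highest E at a G ranged from 5.10 to 7.98.

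All 6 strong G stops of DDX17 and NCL had an E in the library labelled Na+ at least 2-fold that in the library labelled K+, and none of the 8 members had a region stronger in the opposite direction. Over all 3701 transcripts past the minimum in both libraries, 37.9% had at least 1 such region stronger in the library labelled Na+ and 5.00% had one stronger in the library labelled K+. The members' 2 of 8 is not above that background. Of the 6 regions, 4 lie in coding sequence and 2 in the 3′ UTR.

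**Figure D1:**
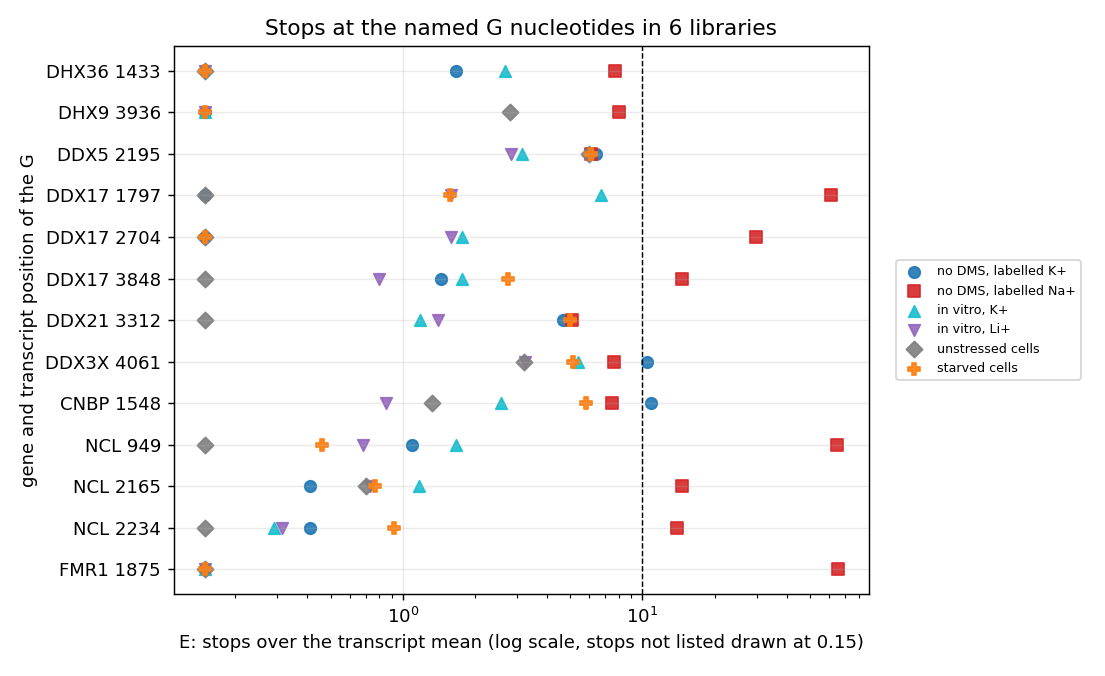
RT-stop enrichment E (log scale) at 13 G nucleotides of the 9 members, with a marker for each of the 6 libraries and the threshold of 10 as a dashed line. At the DDX17 and NCL stops and at FMR1 1875 the library labelled Na+ stands far right of the 5 other libraries, whereas at DDX5, DDX21, DDX3X and CNBP both unprobed libraries lie close together. Stops not listed are drawn at the left edge.

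DDX17, a DEAD-box helicase of transcription, splicing and microRNA processing, carried these stops in coding sequence and 3′ UTR, whereas those of NCL were all in coding sequence. At G 1797, 1693 nt after the first base of the start codon, no stop was listed in the library labelled K+ and 243 were counted in that labelled Na+, an E of 61.1 and at least 84.9-fold higher when the unlisted count is set to 3. In vitro, the same G had 19 stops in K+ and 6 in Li+, in unstressed cells none was listed, and in starved cells there were 4. Of the 14 codons before this stop, 8 encode glycine, and G makes up 55.6% of the 45 nt.

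The 3′ UTR of DDX17 held the only strict quadruplex motif among the 9 members (4 G runs, each of 3 or more G, separated by 1 to 7 nt, searched on the mRNA strand alone). Of 3701 transcripts, 17.7% hold that motif. At G 2704 within it, no stop was listed in the library labelled K+ and 118 were in that labelled Na+ (E of 29.7, at least 41.2-fold higher). There were 5 after refolding in K+ and 6 after refolding in Li+, and none was listed in either cell library. At G 3848, 1549 nt past the stop codon, the library labelled K+ had 6 stops and that labelled Na+ had 58 (E of 1.44 and 14.6), a 10.1-fold difference (95% interval 4.39 to 28.8). There were 5 and 3 stops in vitro in K+ and Li+, none listed in unstressed cells and 7 in starved cells.

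NCL encodes nucleolin, the abundant nucleolar protein with a long acidic amino-terminal region, RNA recognition motifs and a carboxy-terminal RGG domain. Its strongest G stop was not in the RGG-coding part. The 14 codons before it all encode glutamate or aspartate, and G makes up 46.7% of the 45 nt. At G 949 there were 24 stops in the library labelled K+ and 1389 in that labelled Na+ (E of 1.09 and 64.8), a 59.4-fold difference (39.7 to 92.9). In vitro the counts were 23 in K+ and 13 in Li+, no stop was listed in unstressed cells and 3 were in starved cells.

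Of the 2 weaker regions of NCL, G 2165 lay in the RGG-coding part and G 2234 just after its end, at nt 2229. At G 2165 the counts were 9 in the library labelled K+ and 313 in that labelled Na+ (E of 0.410 and 14.6), 16 after refolding in K+, 14 after refolding in Li+, and 5 in each cell library. At G 2234 they were 9 and 299 (E of 0.410 and 14.0), 4 and 6 in vitro, and 6 in starved cells, with none listed in unstressed cells. The ratios of E were 35.7 (18.6 to 78.7) and 34.1 (17.7 to 75.2). Among the members, only NCL encodes a cluster of at least 3 RGG triplets with no gap above 15 residues, with 9 triplets over 123 nt that are 53.7% G. This stretch took 1.74% of the listed G stops of NCL in the library labelled K+ and 5.14% in that labelled Na+, a 2.95-fold difference (2.57 to 3.39). Of 21 transcripts past the minimum with such a cluster, 57.1% had a strong G region in it or within 30 nt after it that was stronger in the library labelled Na+.

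**Figure D2:**
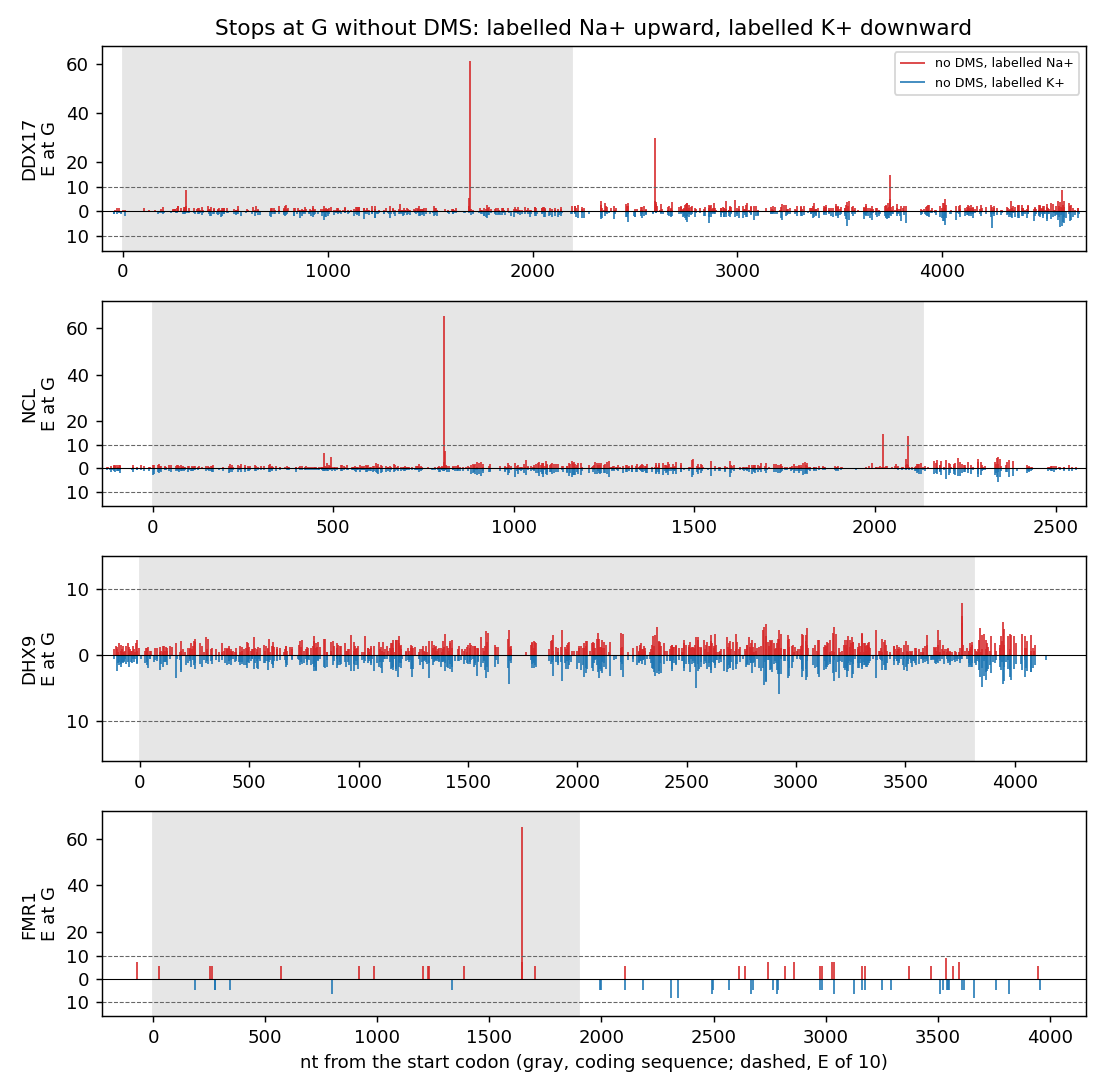
E at each listed G along the transcripts of DDX17, NCL, DHX9 and FMR1, in nt from the start codon, with the library labelled Na+ drawn upward, that labelled K+ downward, the coding sequence in gray and dashed lines at an E of 10. Single tall G stops rise over a low background only in the library labelled Na+ on DDX17, NCL and FMR1, while DHX9 stays below 10.

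FMR1 and DHX9 showed the same kind of position without meeting the criteria. FMR1 encodes FMRP, a translational regulator whose RGG box is a known rG4 binder, and G 1875 lies in the part of the mRNA that encodes 2 RGG triplets. It had 36 stops in the library labelled Na+ and none listed in the other 5 libraries, an E of 65.2 that rests on a transcript mean below the minimum. The ratio to the library labelled K+ was at least 13.2. Of its 14 upstream codons, 10 encode glycine and 3 arginine. DHX9, a nuclear helicase of RNA-DNA hybrids and structured RNA, had its strongest G at 3936 near the end of its glycine-rich coding sequence. There the library labelled K+ had no listed stop and that labelled Na+ had 44 (E of 7.98, at least 15.6-fold higher). None was listed in either in vitro library or in starved cells, and unstressed cells had 4. A coding G at 1433 of DHX36 was the strongest of that mRNA, with 3 stops in the library labelled K+ and 13 in that labelled Na+ (E of 1.68 and 7.69).

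The strong G stops of DDX3X and CNBP did not depend on the cation by the 2-fold criterion. DDX3X encodes a helicase for translation of structured leaders. At its G 4061 the counts were 37 in the library labelled K+ and 25 in that labelled Na+ (E of 10.4 and 7.58, ratio 0.729, 0.421 to 1.24), 12 and 10 in vitro in K+ and Li+, 3 in unstressed and 8 in starved cells. CNBP encodes a zinc-knuckle protein that binds G-rich nucleic acids. At its G 1548 they were 77 and 48 (E of 10.9 and 7.48, ratio 0.687, 0.469 to 0.997), 11 and 5 in vitro, 3 in unstressed and 36 in starved cells. Stops of CNBP nearly end at nucleotide 1704 of 3391, and over the covered part alone the E of this G was 5.47 in the library labelled K+.

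DDX5, the paralog of DDX17, and DDX21, a nucleolar helicase of ribosomal RNA synthesis, had similar counts at their strongest G in both unprobed libraries. For G 2195 of DDX5 these were 70 in the library labelled K+ and 62 in that labelled Na+ (ratio of E 0.949, 0.663 to 1.36). For G 3312 of DDX21 they were 31 and 31 (ratio of E 1.09, 0.642 to 1.86). The DDX5 and DDX17 transcripts share 2 words of 25 nt, so few reads of that length or longer could match both. Reads lost to other transcripts under the authors' rule of unique mapping were not examined.

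The looser motif (4 G runs, each of 2 or more G, separated by 1 to 9 nt, on the mRNA strand) was on every member, from 3 stretches on DHX36 to 15 on DHX9. It was also on 96.9% of the 3701 transcripts. Each of the 6 regions stronger in the library labelled Na+ had this motif in the 45 nt that end at the stop, as did FMR1 1875 and DHX9 3936, whereas the named G stops of DHX36, DDX5, DDX3X and CNBP did not. Such a window held the motif at 81.5% of the 2364 regions of this kind over all transcripts and at 14.0% of all 2302186 G nucleotides, so the members' regions were like most others in this respect. The G of DDX21 at 3312 lies in such a stretch from 3294 to 3313, which ends past the stop. These windows were compared as a description without a test.

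Stops at the same G nucleotides in the DMS libraries were few. In vitro, the stop of DDX17 at 1797 was 4.25-fold stronger in K+ than in Li+ (1.63 to 13.0) and that of NCL at 949 2.46-fold (1.19 to 5.28). At 3848 of DDX17 the ratio was 2.24 (0.435 to 14.4) and at 1548 of CNBP 3.03 (0.972 to 11.1), and both intervals include 1. The in vivo folding score, which is 0 at the Li+ level and 1 at the K+ level, was computed for these 4, the named G stops listed in both in vitro libraries with an E in K+ at least 2-fold that in Li+. These scores rest on 3 to 23 stops in each in vitro library. In starved cells, where all 4 were listed, they were -0.002 for DDX17 1797, -0.221 for NCL 949, 2.00 for DDX17 3848 and 2.89 for CNBP 1548. In unstressed cells CNBP 1548, with 3 stops, scored 0.273. The other three were not listed there, and an unlisted nucleotide can hold from 0 to 2 stops. The score of DDX17 1797 in unstressed cells was then between -0.308 and -0.077, that of NCL 949 between -0.686 and -0.403, and that of DDX17 3848 between -0.809 and 0.402, so the sign of the last is not known.

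Of the 6 regions stronger in the library labelled Na+, 5 had a higher E in starved than in unstressed cells. Over all transcripts past the minimum in both cell libraries, 65.4% of 538 such regions did, with the regions listed in neither cell library counted as not higher. Of the 414 regions listed in at least 1 cell library 85.0% were higher, and the 5 member regions so listed, all of them higher, are read against this share. At these 5 the starved library had only 3 to 7 stops, close to the limit of 3 below which the files list nothing, and the unstressed library is the shallower one. At NCL 2165, the only region listed in both, the E ratio was 1.09 (0.252 to 4.75), so a difference was not detectable at these counts. For DDX17 and NCL, the cell libraries also had fewer stops in the coding sequence than in the 3′ UTR. DDX17 had 0.0692 listed stops per nt in the coding sequence and 2.59 in the 3′ UTR in unstressed cells, 0.197 and 4.05 in starved cells, and 2.15 and 5.38 in the unprobed library labelled K+. For NCL these were 4.61 and 18.8 in unstressed cells, 4.46 and 16.0 in starved cells, and 21.1 and 28.5 in the unprobed library.

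The A and C share of stops shows the DMS reaction. In the unprobed libraries the 9 members had between 49.0% and 55.1% of listed stops at A or C, in vitro between 79.7% and 95.2%, in unstressed cells between 87.1% and 100.0%, and in starved cells between 77.3% and 93.3%. The medians over 1384 transcripts past the minimum in all 6 libraries were 51.5% (labelled K+), 51.0% (labelled Na+), 82.5% (in vitro K+), 81.0% (in vitro Li+), 89.9% (unstressed) and 78.0% (starved). The highest listed shares belong to DHX36 and FMR1, the shallowest members. With the unlisted stops rebuilt from the deposited means, DHX36 had 80.5% in vitro in K+, 85.0% in unstressed and 77.1% in starved cells. FMR1 had 86.0%, 100.0% and 77.2% in the same order, with no U listed in vitro in K+ and no G or U in unstressed cells.

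**Figure D3:**
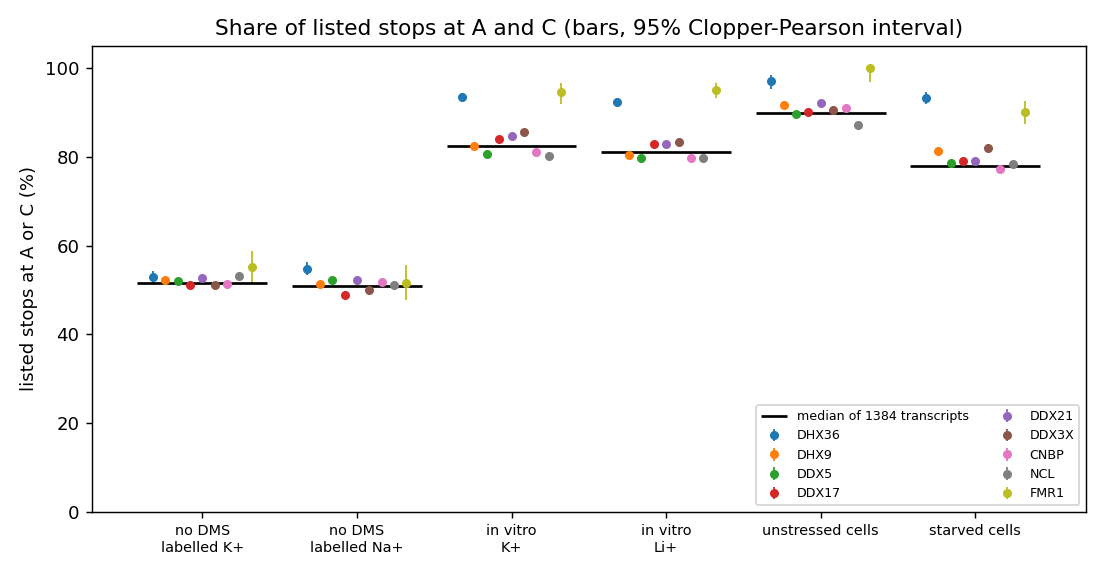
Percentage of listed stops at A or C for each member in the 6 libraries, with 95% Clopper-Pearson intervals as bars and the median of 1384 transcripts as a black line. All members lie near 50% without DMS, lie higher with DMS, and lie lower in starved than in unstressed cells, with DHX36 and FMR1 above the others in each DMS library.

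All 9 members had a lower A and C share in starved than in unstressed cells, as did 99.9% of 1397 transcripts past the minimum in both, so the direction is that of the whole library pair. On listed stops, the smallest difference was that of DHX36, from 97.2% to 93.3% (-3.86 percentage points, 95% interval -5.85 to -1.86). The largest on listed stops were those of DDX21, from 92.1% to 79.0% (-13.1, -14.0 to -12.3), and CNBP, from 91.1% to 77.3% (-13.9, -14.8 to -13.0). NCL went from 87.1% to 78.5% (-8.62, -9.41 to -7.83), DDX3X from 90.5% to 81.9% (-8.60), DHX9 from 91.8% to 81.2% (-10.5), DDX17 from 90.1% to 79.2% (-10.9), DDX5 from 89.6% to 78.5% (-11.0) and FMR1 from 100.0% to 90.2% (-9.81). The median over members was -10.5 points, and -11.0 over the 6 members past the minimum in both cell libraries, beside -11.8 over the 1397 transcripts. Of the 6 members past the minimum, DDX21 and CNBP were the 2 below that transcript median on listed stops. In rebuilt stops the order differed, with -9.32 for DDX21, -9.31 for CNBP, -10.3 for DHX9, -7.85 for DHX36 and -7.21 for DDX3X. The value of -22.8 for FMR1 is not comparable, since no G or U of FMR1 was listed in unstressed cells and none could be rebuilt there. Of the 6, DHX9 alone was then below the transcript median of -9.78.

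Most of the lower A and C share was made up by G. In rebuilt stops, the G share of NCL was 11.1% in unstressed and 17.2% in starved cells, and that of CNBP 9.39% and 16.7%. The C share differed more than the A share in relative terms, with 17.9% and 12.3% for NCL, whose A share was 66.2% and 63.5%. For CNBP the C share was 16.9% and 13.1% and the A share 68.4% and 62.9%. The unstressed library is shallower and lists fewer G and U nucleotides. Over positions listed in both cell libraries the members' median difference was -2.23 points.

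The likeness of A and C profiles along the transcripts varied widely between members. Pearson's r of log2(stops + 1) over the A and C nucleotides of a member is a description, since the points share library, transcript and depth. Between K+ and Li+ in vitro it ranged from 0.187 for FMR1, over 2078 nucleotides, to 0.954 for CNBP, over 1534, and had a median of 0.781 beside 0.783 over 1384 transcripts. Between unstressed and starved cells it was 0.891 for CNBP, 0.864 for DDX5, 0.760 for both NCL and DDX17, 0.703 for DHX9, 0.686 for DDX21, 0.683 for DDX3X, 0.323 for DHX36 and 0.210 for FMR1. The median was 0.703, beside 0.660 over the 1384 transcripts. DHX36, DDX3X and FMR1 enter both member medians, though they did not pass the minimum set for these transcripts. The low values are those of the members with the fewest stops, and those of CNBP and DDX5 include a long 3′ end with almost no stops in the unprobed library labelled K+.

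Single A and C nucleotides that differed between the cell libraries were no more frequent on the members than elsewhere. Of 1295 A and C nucleotides of members with at least 20 stops in 1 cell library, 45 (3.48%) were at least 3-fold higher in starved cells after scaling to the A and C mean of the transcript, beside 4.21% of all such nucleotides. At least 3-fold lower were 27 (2.09%), beside 2.64%. On CNBP, A 1551, which is 3 nt after the strong G at 1548, had 5 stops unstressed and 74 starved, a 5.88-fold difference. The same A had 56 and 45 stops in the unprobed libraries labelled K+ and Na+. A 4247 of DHX9 went the opposite way with 26 and 4 stops, a ratio of 0.163. A 2078 of NCL, in the coding sequence, had 31 and 6, a ratio of 0.236.

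Transcript share, the stops of a transcript per 1000000 stops of the library, with stops estimated as the rebuilt mean times the length so that unlisted ones are included, was nearly the same within each pair of libraries from outside cells. Between both unprobed libraries the members' ratios ranged from 0.949 to 1.02, and between Li+ and K+ in vitro from 0.985 to 1.02. The median absolute log2 ratio over all transcripts was 0.05 in the unprobed pair, 0.04 in the in vitro pair and 0.78 in the cell pair. In these bulk libraries, a change in RNA per cell and a change in the cells that contribute cannot be told apart.

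The levels, as stops per kb of transcript and per 1000000 stops, put NCL first in all 6 libraries when the length up to 20 nt past the last listed position is used. They were 466.8, 475.6, 452.3, 462.2, 387.5 and 214.7 for NCL, in the order labelled K+, labelled Na+, in vitro K+, in vitro Li+, unstressed and starved. In the same order DDX5 had 232.2, 226.4, 229.5, 230.7, 172.8 and 212.0. CNBP had 150.2, 142.5, 140.6, 142.6, 123.7 and 203.7. Within that length, the 3′ parts of DDX5 after nt 2412 and of CNBP after nt 1704 carry almost no stops. Over the covered part alone, starved cells had 328.7 for DDX5 and 405.3 for CNBP, both above NCL, which stayed first in the 5 other libraries. DDX21 had 140.8, 134.8, 139.6, 137.4, 100.9 and 159.0, whereas DHX9 had 124.7, 122.4, 129.3, 128.9, 78.0 and 52.4. DDX17 had 88.6, 88.3, 92.7, 91.5, 91.7 and 83.8, and DDX3X had 75.6, 73.2, 73.6, 74.5, 51.0 and 51.4. DHX36 ran from 20.3 in unstressed cells to 38.0 in the library labelled K+, and FMR1 from 7.13 to 12.9 in the same libraries. The 7.13 rests on A and C alone, since no G or U of FMR1 was listed in unstressed cells.

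CNBP and DDX21 took a larger share of stops in starved cells and NCL a smaller one. Rebuilt CNBP stops numbered 7699 in unstressed and 20909 in starved cells, beside 6893 and 20452 listed ones, a share 1.65-fold higher (1.60 to 1.69). DDX21 had 8729 and 22694 rebuilt stops, a share 1.58-fold higher (1.54 to 1.62). NCL had 19377 and 17710 rebuilt stops, a ratio of 0.554 (0.543 to 0.566). Of the 8 members with at least 0.25 stops per nucleotide in both cell libraries, 2 were at least 1.5-fold higher, beside 22.2% of 4334 transcripts, and 1 was at least 1.5-fold lower, beside 39.6%. DHX9, at 0.672 (0.650 to 0.695), lay just outside the lower limit and passed it on listed stops alone with 0.577.

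**Figure D4:**
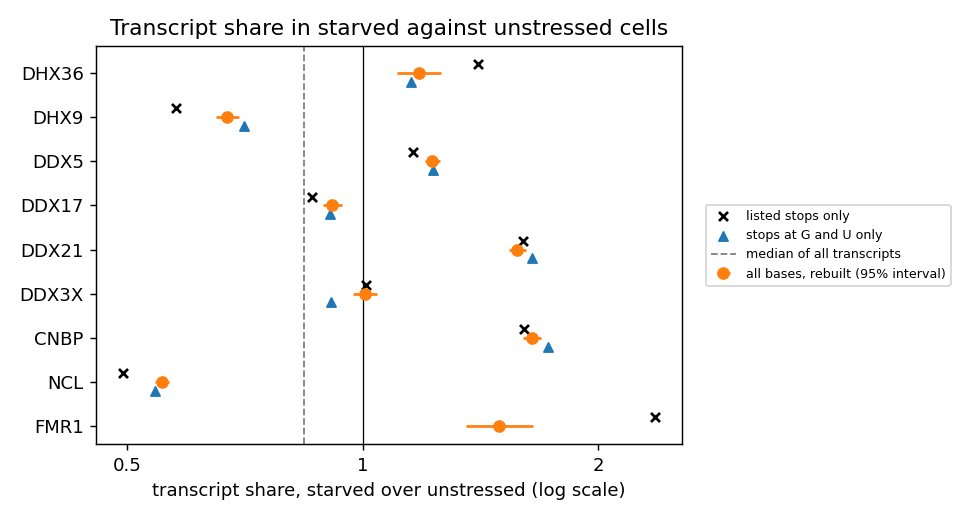
Ratio of transcript share in starved over unstressed cells (log scale) for each member, with the 95% counting interval, the same ratio from listed stops alone and from stops at G and U alone, and the median of all transcripts as a dashed line. CNBP and DDX21 lie right of 1.5 and NCL and DHX9 left of the dashed line by every measure, and FMR1 has no value for G and U.

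The other members differed less. The ratio was 1.23 for DDX5 (1.20 to 1.25), 1.18 for DHX36 (1.11 to 1.26), 1.01 for DDX3X (0.972 to 1.04) and 0.915 for DDX17 (0.889 to 0.941). FMR1, below the minimum, had 574 and 1415 rebuilt stops and a ratio of 1.49 (1.36 to 1.65), which was 2.37 on listed stops alone. The 574 are at A and C only, since no G or U of FMR1 was listed in unstressed cells, whereas the 1415 include G and U. The ratio therefore compares unlike totals. The median log2 ratio of the 8 members with enough stops was 0.12, that of all 9 was 0.24, and that of 4334 transcripts was -0.25. Relative to the median fold of these transcripts, 0.842, only NCL (0.658) and DHX9 (0.798) among the members lay below 1, while DDX17 was at 1.09, DDX3X at 1.20, DDX5 at 1.46, DDX21 at 1.87 and CNBP at 1.96. On stops at G and U alone, DDX3X was at 0.910.

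Other genes for helicases and proteins that unwind or bind quadruplexes were described as a list of 36, of which 33 were matched and 23 passed the minimum in both unprobed libraries. Of these 23, 14 (60.9%) had a strong G region stronger in the library labelled Na+, beside the 37.9% of all transcripts, and 3 (13.0%) had one stronger in the library labelled K+, beside 5.00%. No test was made of that difference, and the list was chosen with earlier results of these data known. The share in starved over unstressed cells had a median of 0.834 over 25 genes of the list, beside 0.842 over all transcripts. At least 1.5-fold higher were 5 (20.0%, beside 22.2%) and at least 1.5-fold lower were 6 (24.0%, beside 39.6%). All 15 with enough stops in cells had a lower A and C share in starved cells, as did 99.9% of transcripts, with a median difference of -10.9 points beside -11.8.

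Strong G stops of TAF15, FXR1 and DDX6 from this list exceeded those of the members, and each is shown with the 30 nt that end at it.
TAF15, 3′ UTR, stop at chr17:34174090, plus strand: ttGGatttttatttGGGtGGGaGGGctGGG
FXR1, 3′ UTR, stop at chr3:180694394, plus strand: gcagagatGGGGGGtGGtGGGtGGGGtGGG
DDX6, 3′ UTR, stop at chr11:118619436, minus strand: ttttttttttaataGGGGtGGGaGGGaGGG
TAF15, an RNA-binding protein of the FET family, had 16 stops in the library labelled K+ and 1278 in that labelled Na+ (E of 6.79 and 410.1). FXR1, a paralog of FMR1, had 8 and 407 (E of 5.36 and 273.7). DDX6, a helicase of mRNA decay, had 42 and 389 (E of 31.1 and 255.8).

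**Figure D5:**
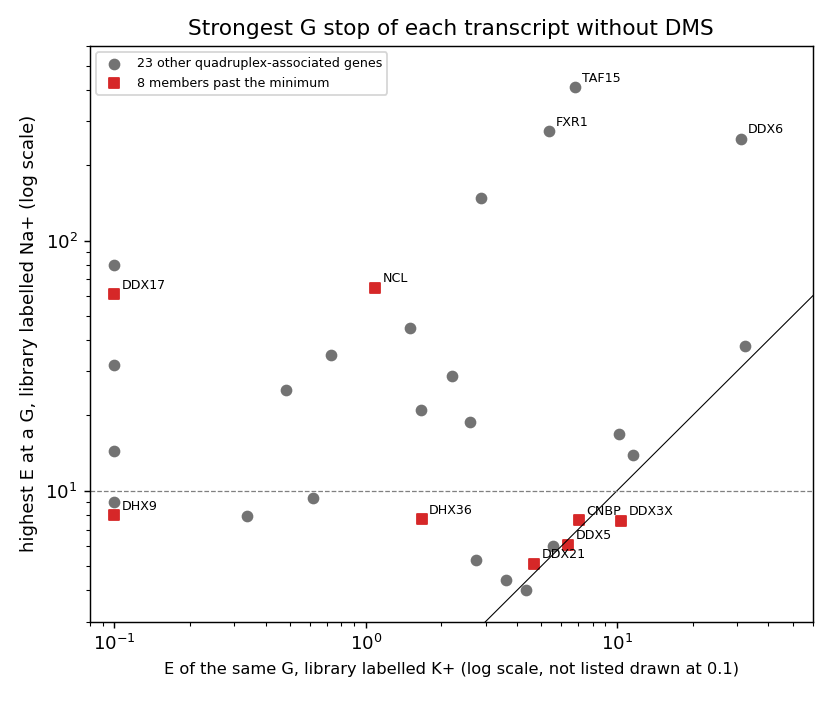
Highest E at a G in the library labelled Na+ (log scale) against the E of the same G in the library labelled K+ (log scale) for 8 members and 23 other quadruplex-associated genes, with the diagonal of equal values and a dashed line at 10. TAF15, FXR1 and DDX6 lie above all members, NCL and DDX17 lie far above the diagonal, and DDX5, DDX21, DDX3X and CNBP lie close to it. Stops not listed in the library labelled K+ are drawn at the left edge.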

How the data were processed

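The members and the wider gene list were chosen with earlier results of these data known. The authors counted a stop only where Bowtie could place the read, once PCR copies and added sequence were gone, at a single site of an hg19 transcriptome with every base matching, so stops in repeated or variant sequence are missing. The authors deposited, for each nucleotide with at least 3 stops, the stop count and the ratio of that count to a mean. The deposited ratio is relative to same-base nucleotides of its transcript, so the whole-transcript mean was rebuilt from it and the base composition. Of 15739 transcripts, 11031 listed 15 or more bases, and 8076 (73.2%) could be matched to GENCODE release 44 on GRCh37 by at least 97% of the listed bases. The length of every transcript, matched or not, was taken to end 20 nt after the last listed position in any library, a base with no listed stop counts as 0, and stops within 30 nt were merged. For 2 ratios of counts an exact conditional binomial interval was used, for shares the Clopper-Pearson interval, both at 95%. Listed depth was 12999691 to 35371061 stops per library. Every member was named, with each cation-dependent G region, its strongest G, and the 4 strongest genes of the wider list, of which 1 is not reported here. Simulated data were used to test the rebuilt means and the calls. Python 3.11.15 with numpy, pandas and scipy was used.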

Additional observations from a re-analysis of the deposited data

How the results depend on the processing

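With an E of at least 5, members with a strong stop at G were 7 in the library labelled K+ and 8 in that labelled Na+, and G regions numbered 6 and 16. The share of all transcripts at this E is not given, so these counts have no background to be read against. With an E of at least 20, no member was left in the library labelled K+, and over the covered part of the transcript, a setting chosen after seeing the data, 1 was left there. With the cation taken from the file names, the 6 regions become those stronger in K+, where the labels give 0. The members' median A and C difference was -2.23 points over positions listed in both cell libraries, -9.13 with rebuilt totals and -7.38 with the starved library thinned, so its size but not its direction depends on listing. The median log2 share ratio was 0.24 over 9 members and 0.49 when scaled by the median ratio. Without FMR1, which has no G and U value, it was 0.12 (a setting chosen after seeing the data) and 0.035 from G and U stops alone, and on listed stops 2 members were at least 1.5-fold lower. The other settings tried kept each count within 1.5 times. No paired analysis was possible because each condition is 1 library. Low counts limit the cell results, since none of the 6 G regions stronger in the library labelled Na+ had more than 7 stops in either cell library. Whether depth or weak stopping gave these counts was not tested.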
